A study of Mus musculus with 4 samples.

Results

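Conventional CD4 T cells of the mouse mammary gland were chosen by their own UMIs (unique molecular identifiers, each a counted transcript). Barcodes needed 500 UMIs or more, 300 genes or more and a mitochondrial share of UMIs of 10% or less. Such a barcode was a member if it held a UMI of Cd3e, Cd3d or Cd3g and a UMI of Cd4, no UMI of Cd8a, Cd8b1, Foxp3, Cd79a or Ms4a1, and at most 1 UMI of C1qa, C1qb and C1qc together. In all, 1411 of 42781 cells met the rule: 430 of 21604 (1.99%) in the earlier and 981 of 21177 (4.63%) in the later of the libraries, by the years in their names, called pool 1 and pool 2 here. Both libraries pooled CD45+ cells whose samples carried hash tags, antibodies with a short DNA barcode, so that a cell can be assigned to its sample. Pool 1 gave 4 hash samples (Nulliparous, Gestation, Lactation and Germ-free) and pool 2 gave 7 (Gestation, Lactation, Involution, Regression, Balb/c, GF and Germ-free). Nulliparous mice have not been pregnant, and involution is the shrinking of the gland once suckling stops. Regression is a further stage named in the labels.

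Balb/c is an inbred strain, and GF is read here only as the name on its tag. The sources used here do not give the strain of the other samples, the reproductive stage of the Balb/c, GF and Germ-free samples, the ages, or the number of animals behind a tag. The name Germ-free stands in both tag sheets on the same tag, while the title of pool 1 lists no germ-free animals, so it is used only as the name of that tag. Only Gestation and Lactation occur in both libraries, with 2 hash samples each. The p-values therefore rest on the spread between these samples alone, which the edgeR fit pools over genes. Every other name has no replicate or a disputed label and is described without a test.

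Helper T cells carry the CD4 coreceptor, which binds major histocompatibility complex class II on antigen-presenting cells, and direct other leukocytes through cytokines and through CD40 ligand. Naive and central memory cells circulate through lymph nodes by way of the chemokine receptor CCR7, and leave them through the sphingosine phosphate receptor S1PR1. Effector cells in tissue lose these receptors, and resident memory cells hold integrins and signalling regulators that keep them in place. The mammary gland is remodelled through pregnancy, lactation and involution, and T cells lie in its stroma and between its epithelial cells.

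The gate rests on few molecules. Exactly 1 Cd4 UMI was seen in 357 of the 430 members of pool 1 (83.0%) and in 662 of the 981 of pool 2 (67.5%). The median member held 1332.5 UMIs in pool 1 and 2789 in pool 2. Just outside the rule, 4562 cells in pool 1 and 3570 in pool 2 differed from the members only in having no Cd4 UMI, 30 and 113 only in a Cd8a or Cd8b1 UMI, and 11 and 80 only in a Foxp3 UMI. Free RNA in droplets can give a Cd4 UMI to a cell that does not express the gene. Among B cells (at least 2 UMIs of Cd79a and Ms4a1, none of Cd3; median 930 and 2037.5 UMIs) 0.588% held a Cd4 UMI in pool 1 and 0.972% in pool 2. Among cells with a Cd3 UMI (median 1460.5 and 3002 UMIs) the share was 6.30% and 15.1%.

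Markers that the rule did not use were higher in the members than in the CD8 gate in each of the 11 samples. Cd40lg, the ligand that helper cells show to B cells, lay between 0.455 and 1.80 UMIs per 10000 member UMIs over the 11 samples, against 0.0157 to 0.246 in the CD8 gate (a UMI of both Cd8a and Cd8b1, none of Cd4). Icos, a costimulatory receptor, lay between 0.909 and 2.85 in the members and between 0.123 and 1.16 in the CD8 gate. Icos does not set the members apart from the cells that differed from them only in a Foxp3 UMI. In those cells, 2 to 23 in a sample where any were seen, Icos lay between 1.79 and 9.71 and Cd40lg between 0 and 1.17. At this depth few members showed them: 10.2% held a Cd40lg UMI and 13.9% an Icos UMI in pool 1, and 27.2% and 30.2% in pool 2.

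Many members also carried RNA of marker genes of other cells. An Igkc UMI was seen in 90.1% of members with 1 tag and no doublet call in pool 1 and 78.4% in pool 2. A UMI of the epithelial list, milk protein genes included, was seen in 53.8% and 81.7%. For the dendritic list the shares were 28.6% and 71.9%, and for the macrophage list 23.5% and 62.1%. Those lists summed to at most 36.9, 23.5 and 13.4 UMIs per 10000 in a sample. Single members of pool 2 held 145 S100a9 UMIs and 87 Dcn UMIs. Of the 353 members of pool 1 with 1 tag and no doublet call, 3 held at least 50 UMIs of the antibody genes Igkc, Igha and Jchain, 2 in Nulliparous and 1 in Lactation. The 7 B cell marker genes outside the gate summed to 494 UMIs per 10000 in Lactation of pool 1 and 146 in Nulliparous of pool 1, and to 21.7 and 20.4 without the 1 cell richest in them. They lay at 18.1 and 22.3 in the other samples of pool 1 and between 6.35 and 8.78 in all 7 samples of pool 2. NK cell markers summed to 1.02 to 6.48 and gamma-delta T cell markers to 0.181 to 1.29. Barcodes shared by the libraries numbered 139, among them 1 member of pool 1 and 14 of pool 2. The gene entry CT010467.1 took 19.0% to 21.3% of member UMIs in pool 1 and 5.30% to 6.72% in pool 2, so levels are compared within a library.

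Members with 1 tag and no doublet call, 353 in pool 1 and 782 in pool 2, were used from here on. In pool 1 they were 3.27% of the Nulliparous sample (184 of 5632 cells; 95% exact binomial interval 2.82 to 3.77), 1.57% of Gestation (69 of 4408; 1.22 to 1.98), 1.49% of Lactation (36 of 2421; 1.04 to 2.05) and 2.26% of Germ-free (64 of 2826; 1.75 to 2.88). The Nulliparous interval lay above those of Gestation and Lactation, which overlapped. In pool 2 the members were 9.80% of Gestation (326 of 3328; 8.81 to 10.9) and 9.32% of Lactation (73 of 783; 7.38 to 11.6). They were 3.92% of Involution, 3.85% of Regression, 4.16% of Balb/c, 3.77% of GF and 2.34% of Germ-free, with upper bounds of 4.81, 4.70, 5.14, 4.67 and 3.15. Gestation and Lactation thus stood above the other 5 samples of pool 2. Intervals cover counting error only.

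Lactation minus Gestation was -0.0783 percentage points in pool 1 and -0.473 in pool 2, and the counting intervals overlapped in each library. The mean difference was -0.275 percentage points (exact two-sided permutation test over 4 samples, p = 0.667, where 0.333 is the smallest p possible). That test takes no account of the library. With the labels permuted within each library, a setting added after seeing the data, the exact p was 0.5, the smallest that its 4 arrangements allow. With each cell of pool 2 thinned to 1000 UMIs, the share was 4.48% in Gestation, 3.89% in Lactation (2.64 to 5.50) and 1.28% to 2.06% in the other 5, of which Involution and Balb/c had intervals that overlapped that of Lactation (upper bounds 2.72 and 2.81). Of cells with a Cd3 UMI, the members were 15.3% of Gestation, 13.6% of Lactation (10.8 to 16.8), 12.1% of Regression (9.84 to 14.6) and 8.24% to 9.66% of the others, so Lactation and Regression did not differ beyond counting error. Over thinned cells with a Cd3 UMI they were 8.54% of Gestation, 7.12% of Germ-free, 7.07% of Regression, 6.74% of Lactation and 4.79% to 6.40% of the others, and Lactation no longer stood above Germ-free and Regression. The median own-tag count of a member was 15 in Gestation of pool 2 and 7 in Lactation of pool 2, against 26.5 to 96 in the other samples of that library, and the part of weak tags in these shares was not tested. Foxp3 cells were 6.59% of the Foxp3 and conventional CD4 cells together in Gestation of pool 2 (95% exact interval 4.22 to 9.72) and 14.0% in Regression (8.06 to 22.1).

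**Figure D1:**
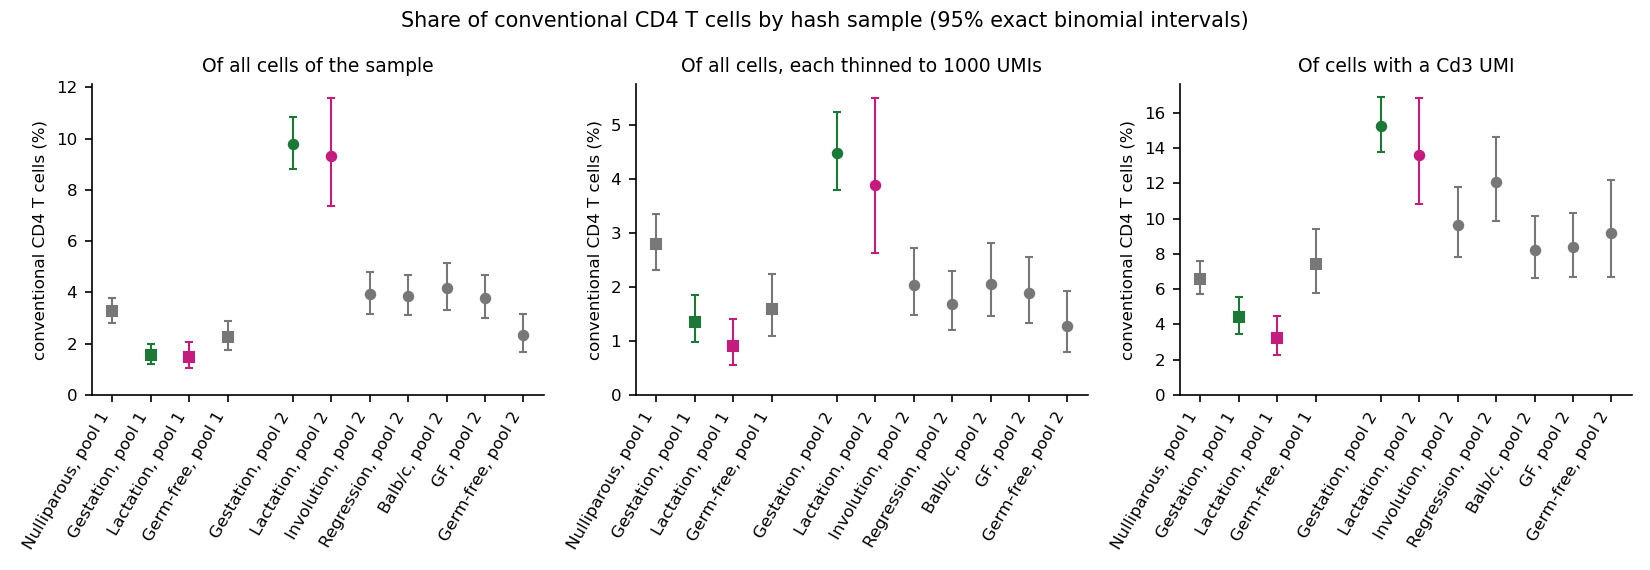
Conventional CD4 T cells as a percentage of all cells of a hash sample (left), of cells thinned to 1000 UMIs (middle) and of cells with a Cd3 UMI (right). Each point is 1 hash sample (squares pool 1, circles pool 2; Gestation green, Lactation magenta, others grey) with its 95% exact binomial interval. Gestation and Lactation of pool 2, at 9.80% and 9.32%, stand above the other samples of pool 2 in the left panel.

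The comparison the design replicates asked how these cells differ between gestation and lactation. In lactation they held less RNA of genes that mark naive and central memory cells, Ccr7, Satb1 and Igfbp4, and of Sptbn1, and more of Rgs1, Ccl5 and Gadd45b. UMIs were summed over the members of each of the 4 samples and tested with edgeR's quasi-likelihood test, with the library as a block and Benjamini-Hochberg adjustment, at an adjusted p under 0.05. Of 2429 genes tested, 16 passed (0.659%), 11 higher (0.453%) and 5 lower (0.206%) in Lactation, and 114 had an unadjusted p under 0.05. All 16 went the same way in both libraries, as did 1237 of the 2429 genes tested. A fit with the library as a block favours such genes, so this is not separate support. For 8 of the 16 genes 1 cell held more than 30% of the UMIs of the higher stage. The fit has 1 residual degree of freedom, and its prior degrees of freedom were infinite. The spread is thus pooled over genes, and a gene's own spread between the samples hardly enters its p-value. The number of calls depends on 1 cell. Without the antibody-rich Lactation member of pool 1 only Ccl1 passed, with 102 genes at an unadjusted p under 0.05, although the fold changes of the 7 genes named above hardly moved. DESeq2 also called Ccl1 alone. With at least 2 Cd4 UMIs 12 genes were called, and only 1 of them was among the 16. Fits with 1 sample left out set a stage of 1 library against both libraries without a block, so the genes they called are not named.

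Ccr7, the receptor for lymph node chemokines, stood at 1.57 and 0.906 UMIs per 10000 in Gestation and Lactation of pool 1 and at 1.47 and 0.292 in pool 2. It fell by 1.82 on the log2 scale (SE 0.46, edgeR adjusted p = 0.0184; 0.357 without the antibody-rich member). Satb1, a chromatin organiser of T cell development, had 30 and 10 UMIs in pool 1 and 551 and 27 in pool 2, and fell by 1.72 (SE 0.31, adjusted p = 1.6e-05; 0.27 without that member). Igfbp4, a binding protein for insulin-like growth factors that naive T cells express, had 11 and 3 UMIs in pool 1 and 335 and 13 in pool 2, and fell by 2.20 (SE 0.43, adjusted p = 8.72e-05; 0.27 without it). All 3 genes lay lower in Lactation in each library. The sums of pool 1 were small, and the fall rests mainly on pool 2: the log2 differences within pool 1 were -0.53 for Ccr7, -0.57 for Satb1 and -0.75 for Igfbp4, and within pool 2 -2.33, -2.12 and -2.43.

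Sptbn1, which also fell, encodes a spectrin of the membrane skeleton. Its UMIs numbered 7 and 3 in pool 1 and 213 and 12 in pool 2, a log2 change of -1.67 (SE 0.43, edgeR adjusted p = 0.0206; 0.357 without the antibody-rich member). No cell held over 3.64% of the Gestation UMIs of any of these 4 genes.

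The naive and central memory list holds 14 genes, with Tcf7, Satb1, Il7r and Klf2 giving most of its UMIs. Of its 12 genes tested, 4 fell, Ccr7, Satb1 and Igfbp4 among them, and none rose, beside 0.206% of all genes tested that fell. All 12 had a fold change below 0, with a median of -0.99 on the log2 scale against -0.0042 over all genes. This list and the others were chosen with earlier results of these data known, so such counts are descriptions. S1pr1, the egress receptor, missed the threshold (log2 change -1.07, SE 0.31, adjusted p = 0.0519), as did Tcf7, a transcription factor of naive and memory cells (-0.90, SE 0.27, adjusted p = 0.088). Summed over the list, the members held 35.8 UMIs per 10000 in Gestation and 23.2 in Lactation in pool 1 (95% Poisson intervals 32.2 to 39.8 and 19.4 to 27.6), and 41.1 and 17.5 in pool 2 (39.8 to 42.3 and 15.7 to 19.4). Each Lactation sample was the lowest of its library. The others lay between 35.6 and 44.2 in pool 1, and in pool 2 Balb/c, at 26.8, was the next, with the rest between 37.0 and 42.2. The order of Lactation below Gestation held in both libraries with members thinned to 1000 UMIs (38.9 and 26.3 in pool 1, 42.8 and 18.6 in pool 2). It also held without the member richest in the list (33.9 and 20.8, 40.7 and 16.1).

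Rgs1, a regulator of G protein signalling that dampens chemokine responses and is high in resident T cells, stood at 3.45 UMIs per 10000 in Gestation and 4.17 in Lactation in pool 1, and at 5.46 and 13.7 in pool 2. It rose by a log2 change of 0.98 (SE 0.26, edgeR adjusted p = 0.0224; 0.357 without the antibody-rich member). The counting intervals overlapped in pool 1 and were apart in pool 2. Of the 12 genes of the tissue residence list, 7 were tested and Rgs1 alone passed. The median log2 change was 0.56, and Itga1, an integrin that binds collagen, missed the threshold (1.23, SE 0.37, adjusted p = 0.0822). The list summed to 12.6 and 13.0 per 10000 in pool 1 and to 17.8 and 32.6 in pool 2. Lactation of pool 2 was the highest of the 7 samples of its library, and Gestation and Lactation of pool 1 did not differ beyond counting error.

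Ccl5, a chemokine of memory and effector T cells, stood at 20.7 and 29.4 per 10000 in Gestation and Lactation of pool 1 and at 13.9 and 32.2 in pool 2. Its log2 change was 0.90 (SE 0.24, edgeR adjusted p = 0.0289; 0.316 without the antibody-rich member). Gadd45b, a stress-response gene also induced by T cell activation, had 5 and 15 UMIs in pool 1 and 89 and 42 in pool 2, a log2 change of 1.42 (SE 0.35, adjusted p = 0.0102; 0.357 without it). Both genes were higher in Lactation in each library. In B cells free of Cd3, Ccl5 lay at 0.481 to 3.29 in these 4 samples.

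**Figure D2:**
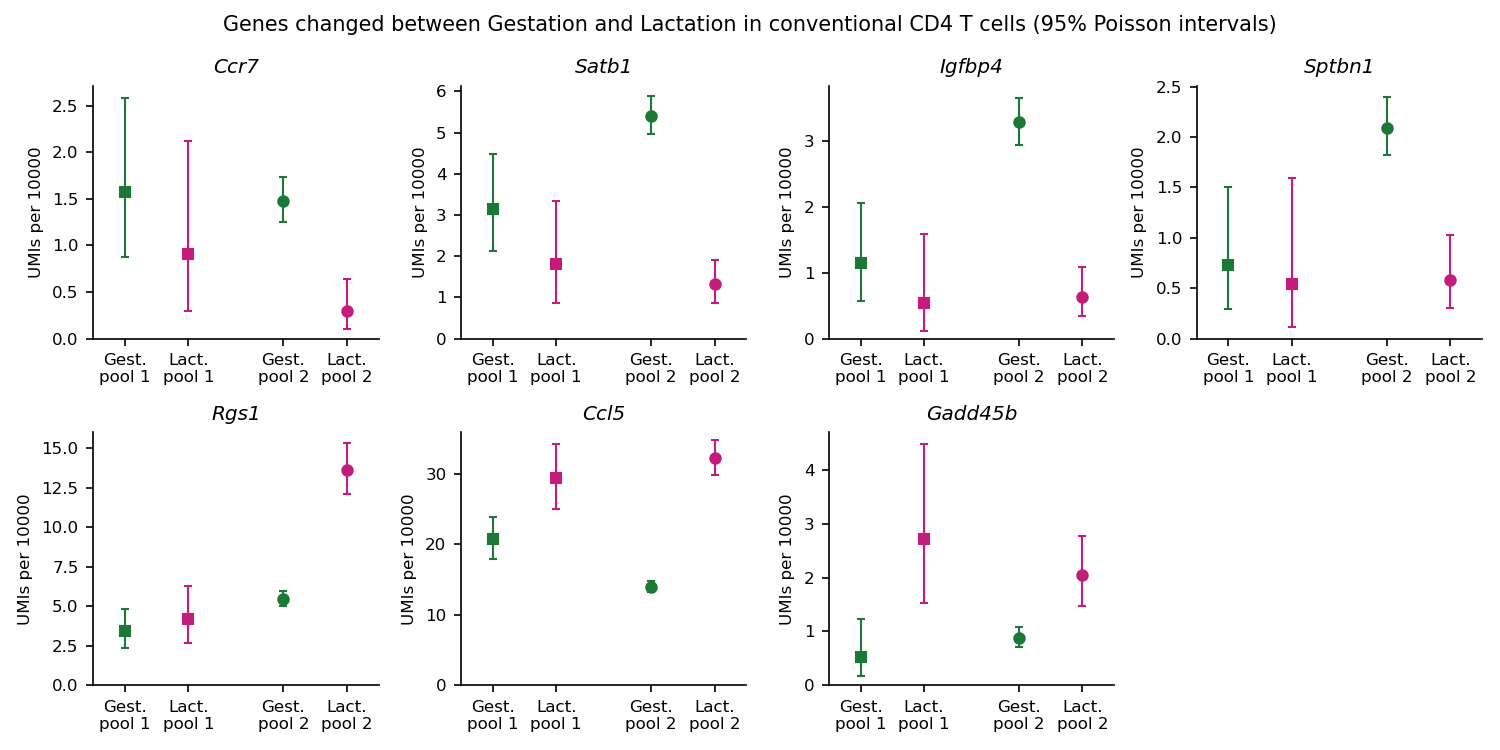
UMIs per 10000 member UMIs of 7 genes in the Gestation (green) and Lactation (magenta) samples of pool 1 (squares) and pool 2 (circles), with 95% Poisson intervals. The 4 genes plotted that fell lie lower in Lactation in each library, with a wider gap in pool 2, and Rgs1, Ccl5 and Gadd45b lie higher.

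Among genes of cytotoxic cells several rose in Lactation, with a few cells holding much of their RNA. Of 16 cytotoxic genes, 7 were tested and 4 rose (Ccl5, Gzma, Xcl1 and Ccl4), beside 0.453% of all genes, and all 7 had a fold change above 0 with a median of 0.90. Gzma, a granzyme, had 98 UMIs in Lactation of pool 1 and 20 in Gestation of pool 1, and 88 in Lactation and 296 in Gestation of pool 2. The log2 change was 3.23 within pool 1 and 0.46 within pool 2, and 1.53 over both libraries (edgeR adjusted p = 1.25e-06; 0.567 without the antibody-rich member). Xcl1 and Ccl4 also missed the threshold without that member, at adjusted p of 0.357 and 0.27. Of the Lactation UMIs of Gzma 46.8% lay in 1 cell, of those of Xcl1 (a chemokine for cross-presenting dendritic cells) 37.9%, and of those of Ccl4 41.7%. Nkg7, a granule protein, missed the threshold (0.87, SE 0.25, adjusted p = 0.0654). The list summed to 32.2 and 74.5 per 10000 in Gestation and Lactation of pool 1 and to 27.7 and 55.1 in pool 2. Without the cell richest in the list these were 28.4 and 50.6, and 25.0 and 45.3. With members that held NK or gamma-delta T cell UMIs left out, Ccl5 had a log2 change of 0.60 (adjusted p = 0.917) and Ccl4 still passed (adjusted p = 0.0472). Gzma was not among the genes tested there.

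The other calls came mostly from single cells. Ccl1, a chemokine of activated T cells, had 224 UMIs in Lactation of pool 2, all in 1 member. Of the Lactation UMIs of the antibody genes Igkc, Igha and Jchain, 91.5%, 85.0% and 92.4% lay in 1 member of pool 1. Cd7, a surface glycoprotein of T and NK cells, had 34.6% of its 52 Lactation UMIs in 1 cell.

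Of the other lists, homing and egress receptors had 2 of 13, Ccr7 among them. The Th1 list, the genes of interferon-gamma-producing helper cells, had 0 of 8 by edgeR (0 by DESeq2; 3 at an unadjusted p under 0.05) with 6 above 0 and a median of 0.61. In pool 2 it summed to 9.11 in Gestation and 17.4 in Lactation (intervals 8.53 to 9.72 and 15.7 to 19.3), and in pool 1 to 7.94 and 6.34 (6.26 to 9.94 and 4.42 to 8.82). Ifng itself stood at 1.05 and 3.37 in pool 2. In pool 1 it stood at 0.836 and 0.544, over 95734 and 55218 member UMIs. These pool 1 values rest on few UMIs, and no direction is read from them. The effector memory list, led by Crip1, S100a6, Ahnak and S100a4, had 0 of 13 past the threshold (3 at an unadjusted p under 0.05) and summed to 71.3 and 62.3 in pool 1 and to 66.7 and 85.0 in pool 2. T cell receptor signalling genes, led by Ptprc, Trbc2, Trac and Cd28, had 0 of 15 and a median of -0.06, with 1 at an unadjusted p under 0.05. Cell cycle genes had 0 of 10 (1 unadjusted), and costimulation and activation genes, led by Cd28, Cd5, Cd6 and Icos, 0 of 8 (2 unadjusted). The JAK-STAT and cytokine receptor list, led by Il7r, Jak1, Il2rb and Il2rg, had 0 of 15 (5 unadjusted). DESeq2 called no gene of these lists either.

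Lower levels of Ccr7, Satb1 and the naive list in Lactation were also seen in CD8 T cells. In the CD8 gate Ccr7 stood at 0.570 and 0.123 per 10000 in Gestation and Lactation of pool 1 and at 1.21 and 0.443 in pool 2, and Satb1 at 0.969 and 0.798, and at 3.72 and 1.57. Igfbp4 stood at 0.986 and 0.273 in pool 2. In pool 1 it stood at 0.114 and 0.184, over 175601 and 162980 UMIs of the CD8 gate, too few Igfbp4 UMIs to read a direction. The naive and central memory list summed to 19.7 and 9.52 in pool 1 and to 30.8 and 16.4 in pool 2. A test of the difference between the 2 gates, chosen after these results were seen, fitted 8 sums with the hash sample as a block. The change of Ccr7 in the members less that in the CD8 gate was -0.06 (SE 0.85), that of Satb1 -0.59 (SE 0.50), that of Rgs1 -0.0046 (SE 0.40) and that of Ccl5 0.24 (SE 0.26), each with an edgeR adjusted p of 1. Of 3612 genes 5 differed (0.138%), and none of them was among the 7 genes above. These values do not show that the gates change alike, since the standard errors are wide (0.85 for Ccr7, 0.67 for Igfbp4).

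**Figure D3:**
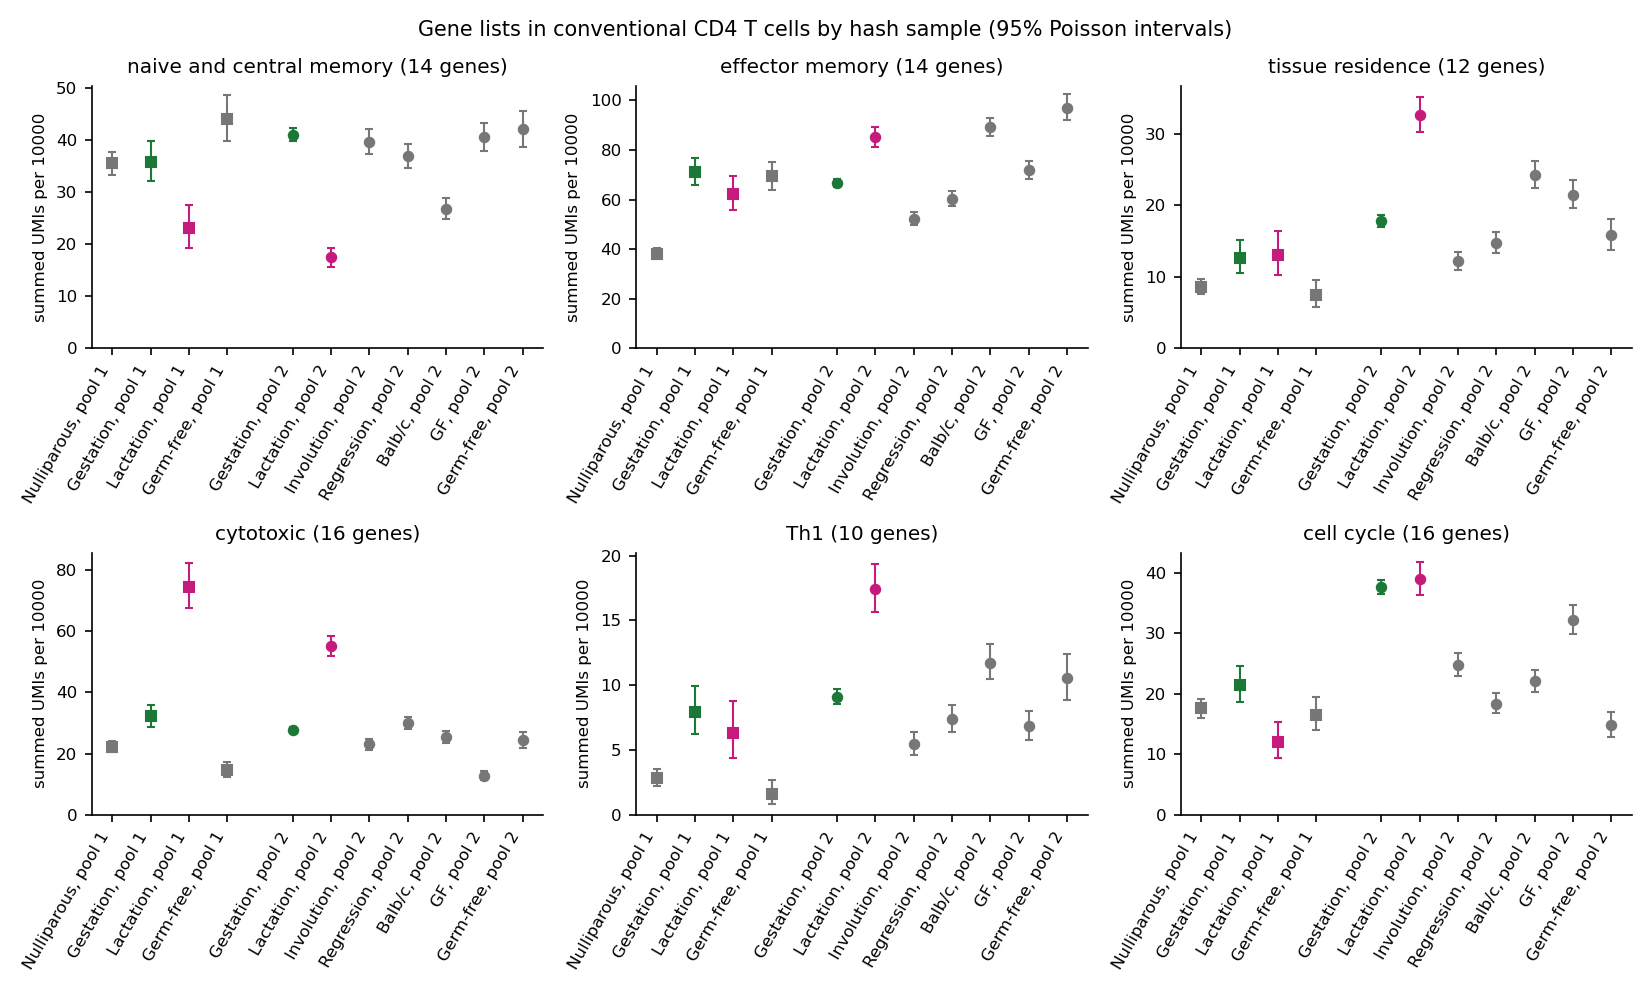
Summed UMIs per 10000 member UMIs of 6 gene lists in each hash sample (squares pool 1, circles pool 2; Gestation green, Lactation magenta, others grey), with 95% Poisson intervals. Within their library the Lactation samples are lowest for the naive and central memory list (23.2 and 17.5) and highest for the cytotoxic list (74.5 and 55.1), and within pool 2 Lactation is highest for the tissue residence and Th1 lists.

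Single members of pool 2 that held RNA of the tissue residence list held less of the naive list. Among members of pool 2 thinned to 1000 UMIs, the 523 with a UMI of the tissue residence list held 3.27 UMIs of the naive and central memory list per cell, and the 259 without held 5.41. The same order was seen within 7 of 7 samples of pool 2. In pool 1, with 147 and 136 members, the means were 3.63 and 4.25, but the order held within only 2 of 4 samples. Effector memory list means were 7.79 and 3.85 in pool 2, higher with a residence UMI within 7 of 7 samples, and 5.16 and 4.14 in pool 1, higher within 2 of 4. For the Th1 list they were 1.21 and 0.463 in pool 2 and 0.395 and 0.272 in pool 1, higher within 7 of 7 and 4 of 4 samples. Cxcr6 is in both the residence and the Th1 list, so part of that Th1 order is fixed by the split itself. The cytotoxic list was likewise higher with a residence UMI within 7 of 7 and 4 of 4 samples. Cells of a sample are not replicates, so these are descriptions.

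For names without a replicate, each gene's UMIs per 10000 were divided by those of Gestation in the same library. A gene was past the fold at a ratio of at least 2 or at most 0.5, with at least 50 UMIs in both samples together and at least 10 member cells with a UMI in the higher sample. Intervals are exact and cover counting error only. All of these ratios share the Gestation sample of their library. Cell cycle genes were past the fold lower in each of the 5 samples of pool 2 described this way, 4 of 12 genes with enough UMIs in Involution, 9 of 12 in Regression, 5 of 13 in Balb/c, 3 of 13 in GF and 7 of 12 in Germ-free, all against the 1 Gestation sample. Its cell cycle list summed to 37.7 UMIs per 10000 (35.3 without its richest member), against 39.0 in Lactation (29.9) and 14.8 to 32.3 in the other 5.

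Nulliparous members carried fewer transcripts of effector memory genes than Gestation members. Of 820 genes with enough UMIs, 23 were past the fold higher (2.80%) and 25 lower (3.05%). The effector memory list summed to 38.2 per 10000 in Nulliparous, the lowest value of pool 1, against 71.3 in Gestation, and 3 of its 9 genes with enough UMIs were past the fold lower. Ahnak, a scaffold protein, stood at 3.29 against 9.61 (ratio 0.342, 0.253 to 0.461). Itgb1, the integrin beta-1 chain, stood at 3.36 against 9.51 (ratio 0.353, 0.262 to 0.476), and Itga4, its alpha-4 partner, at 2.00 against 5.12 (ratio 0.391). The heat shock gene Hspa1b (ratio 0.233) and the adhesion receptor gene Adgre5 (ratio 0.387) were also among the 5 lowest. The 5 highest were Nsg2 (ratio 9.40, 2.48 to 79.6, from 55 and 2 UMIs), Cct6a, Rps27rt, Sptbn1 and Git2, at 3.93, 2.78, 2.69 and 2.54. Naive and central memory genes were level between the samples, 35.6 against 35.8. The Th1 list stood at 2.82 in Nulliparous and 7.94 in Gestation of pool 1.

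Members of the Germ-free tag of pool 1 were also low in Itgb1. Their effector memory list summed to 69.4, against 71.3 in Gestation of pool 1, but a few members carried much of it. Without the 5 members that held innate or gamma-delta T cell UMIs it was 29.4 (25.5 to 33.7), against 72.4 in Gestation and 32.5 in Nulliparous with such members also left out. Of 347 genes, 2 were past the fold higher (0.576%) and 12 lower (3.46%). Itgb1 had the lowest ratio, 0.239 (0.139 to 0.391; 20 and 91 UMIs), followed by Ccl5 at 0.308, Gnas at 0.385, Hcst, an adaptor of the NKG2D receptor, at 0.393 and AW112010 at 0.393. Bcl11b, a transcription factor of T cell identity, was higher at 2.03. Within pool 1 the Th1 list was lowest here, at 1.59, and the naive list highest, at 44.2 (39.1 with members under 1000 UMIs left out).

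Involution members held fewer transcripts of several Th1 and cell cycle genes than Gestation members of pool 2. Past the fold were 26 of 3893 genes higher (0.668%) and 112 lower (2.88%). The lowest ratios were those of the histone genes H1f5 (0.0600, 0.0123 to 0.178; 3 and 185 UMIs), H2ac8 (0.0732, 0.00875 to 0.271; 2 and 101 UMIs) and Hist1h2ap (0.101), then Mpp7 (0.137, 0.0162 to 0.519) and Rab11fip4 (0.224). Among the cell cycle genes, Mki67 had a ratio of 0.457 and Top2a of 0.371. Of 9 Th1 genes 3 were lower, Ifng, Il18r1 and Il18rap, with Ifng at 0.290 against 1.05 (ratio 0.276, 0.116 to 0.565). Highest were Slc25a36 at 2.67, the interferon-inducible genes Ifi214 at 2.49 and Irf7 at 2.47, the heat shock gene Hsph1 at 2.41 and Tgfbr3 at 2.39. The interferon-stimulated list summed to 31.2 in Involution, 21.6 in Gestation and 33.7 in Lactation of pool 2.

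Regression members were low in most of the cell cycle genes with enough UMIs and in Ifng. Of 3950 genes 41 were past the fold higher (1.04%) and 89 lower (2.25%). Kctd12 (ratio 3.23), Trerf1 (3.16), Tbc1d4 (3.1), Batf, a transcription factor that follicular helper and Th17 cells need (2.98, 1.67 to 5.27), and Furin, a proprotein convertase (2.77), had the highest ratios to Gestation. The T follicular helper list, led by Maf, Slamf6, Tox and Sh2d1a, summed to 10.6 (9.44 to 11.9) against 6.67 in Gestation of pool 2, and only GF was higher in pool 2, at 11.8. Of 4 follicular helper genes with enough UMIs 1 was past the fold higher (Sh2d1a), of 3 Th17 genes 1 (Tmem176b) and of 9 costimulation and activation genes 0. Ccr6, a chemokine receptor of Th17 cells, was seen in 12 of the 92 Regression members with 28 UMIs, against 4 of 326 Gestation members with 8 UMIs. Tpx2 had 1 UMI against 62 (ratio 0.0600, 0.00150 to 0.347), Hist1h2ap had a ratio of 0.0846 and Kif11, with 2 UMIs, 0.111 (0.0132 to 0.417). H1f5 and H2ac8 had 0 UMIs against 185 and 101. The floor of 3 UMIs puts them at most at 0.0603 and 0.111 of Gestation.

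Balb/c members held more transcripts of type 2 helper genes than Gestation members of pool 2. Of 3948 genes 97 were past the fold higher (2.46%) and 129 lower (3.27%). Both Th2 genes with enough UMIs were higher. Gata3, the transcription factor of type 2 cells, stood at 3.92 per 10000 against 1.06 in Gestation of pool 2 (ratio 3.70, 2.79 to 4.90) and was seen in 33 of 82 members. Il1rl1, the interleukin-33 receptor, had 43 UMIs in 12 members against 7 UMIs in 4 members (ratio 24.5, 10.9 to 64.6). Il4 was near 0 everywhere, with 2 UMIs in Balb/c. Il1rl1 and Gata3 also mark group 2 innate lymphoid cells. The list of that cell type, which holds both genes, summed to 5.88 in Balb/c, the highest of pool 2. It is thus not separate from them, and the part of that cell type in the result was not tested. Ccr2, a receptor for inflammatory chemokines, had a ratio of 6.16, and the monocyte list, which holds Ccr2, was also the highest of pool 2 here, at 8.70. Of 19 immediate early genes with enough UMIs, 2 were past the fold higher, Fos at a ratio of 4.04 and Fosb at 5.75.

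The largest ratios in Balb/c belonged to gene models that share sequence with ribosomal protein genes. Gm15772 had a ratio of 193 (145 and 3 UMIs) and Rps18-ps6, named as a pseudogene, of 110 (55 and 2), while Rpl26 had the fifth lowest, 0.0588. Reads of near-identical copies can be split between them by the counting, so these 3 values are uncertain. Mid1 (16.0) and C920009B18Rik (8.69) were the other 2 highest. Dapl1, a gene of naive T cells (ratio 0.0335, 0.000842 to 0.190; 1 and 119 UMIs), Trim12a (0.0344, 0.000864 to 0.196; 1 and 116), Gm1966 (0.0370, 0.00445 to 0.135; 2 and 216) and Arhgap31 (0.0547, 0.00137 to 0.314; 1 and 73) were the lowest beside Rpl26. Ly6a, whose expression on T cells depends on the strain, had 5 UMIs against 202 (ratio 0.0988, 0.0317 to 0.234). Strain and the other features of this sample cannot be told apart.

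GF members held more transcripts of some regulatory T cell genes and fewer of some Th1 and cytotoxic genes than Gestation members of pool 2. Past the fold were 60 of 3810 genes higher (1.57%) and 100 lower (2.62%). Tnfsf8, the CD30 ligand, was highest (3.03 per 10000 against 0.520; ratio 5.83, 4.0 to 8.53), followed by Tiam1 (5.46), the inhibitory receptor gene Ctla4 (2.25 against 0.609; ratio 3.70, 2.49 to 5.47), Eea1 (3.17) and Tagap (3.0). Of 6 regulatory T cell genes with enough UMIs, 3 were higher (Ctla4, Ikzf2 and Nrp1), in cells in which no Foxp3 UMI was seen by the rule. Gata3 had a ratio of 2.69. Tbx21, the transcription factor of Th1 cells, was lowest (2 and 57 UMIs; ratio 0.164, 0.0194 to 0.621), then Cenpf (0.167, 0.0338 to 0.506), Efcab14 (0.170, 0.0201 to 0.645), Hsd11b1 (0.184) and Nusap1 (0.189). Of 9 Th1 genes with enough UMIs 3 were lower (Ifng, Il18rap and Tbx21), and of 8 cytotoxic genes 4 (Ccl5, Fasl, Gzmb and Klrd1), with Ifng at a ratio of 0.437 and Ccl5 at 0.346. Milk protein RNA summed to 16.9 in GF against 8.11 to 9.14 in Gestation, Lactation, Involution, Regression and Balb/c of pool 2, and its part in these ratios was not tested.

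The Germ-free tag of pool 2 gave 42 members, the fewest of its library. Of 3585 genes 84 were past the fold higher (2.34%) and 217 lower (6.05%). Cell cycle genes were low: Mki67, Hist1h2ap and H1f5 had 1 UMI each against 243, 220 and 185 (ratios 0.0306, 0.0338 and 0.0402; intervals 0.000772 to 0.172, 0.000853 to 0.190 and 0.00101 to 0.227), and Stmn1 had 3 against 288 (0.0775, 0.0159 to 0.229). Tyrobp, an adaptor of innate cells, had 1 against 97 (0.0767, 0.00192 to 0.438). Rgs1 stood at 1.10 against 5.46 (ratio 0.201, 0.112 to 0.334). In pool 1 the same tag had the lowest Rgs1 of its library, 0.227, from few UMIs. There Rgs1 fell short of 50 UMIs in both samples together, so no ratio is given. Highest were the Ly6 antigen gene Ly6c2 (5.21), Fosb (4.41), Maea (3.01), E430014B02Rik (2.75) and Snx18 (2.73). Milk protein genes summed to 44.9, of which 80.0% lay in 1 member, and to 10.47 without it. The immediate early list, led by Junb, Jund, Btg2 and Hsp90aa1, was the highest of pool 2, 87.7 (73.9 without 1 member that held 27.6% of it), then Balb/c at 73.2 and GF at 69.4, against 43.4 to 59.99 in the 4 other samples of pool 2. Of its 19 genes with enough UMIs 5 were past the fold higher in Germ-free (Egr1, Fos, Fosb, Jun and Nr4a3), and 1 in GF (Fosb).

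Across the helper programmes the samples of pool 2 held different leading genes. Lactation had the most of the Th1 list (17.4), with Ifng seen in 29 of 73 members and Cxcr3, the receptor for interferon-induced chemokines, at 2.58 per 10000. Balb/c had the most of the Th2 list (6.23; 5.30 to 7.28), and GF and Regression the most of the T follicular helper list. The Th17 list was low, between 1.60 and 4.57, with Regression and Germ-free (4.31) highest. Its members Rora, Tmem176b and Tmem176a are also expressed outside Th17 cells. Ltb, a lymphotoxin subunit, gave the most UMIs of the cytokine list and lay between 4.17 and 8.07 per 10000.

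**Figure D4:**
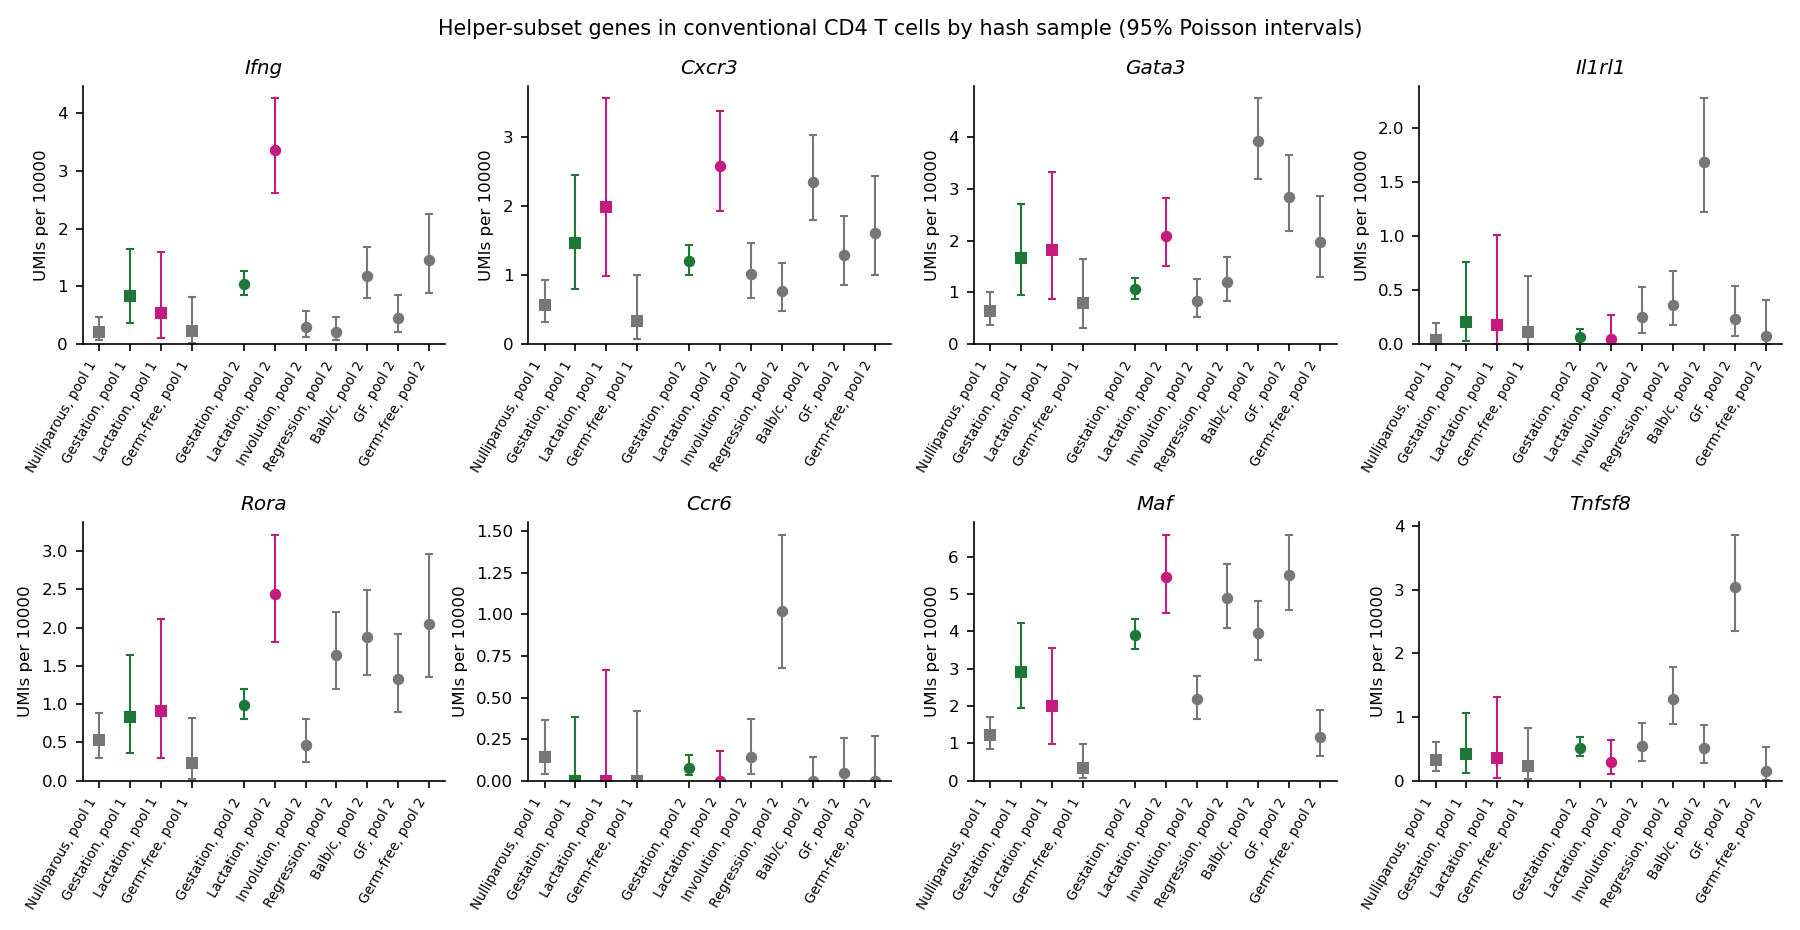
UMIs per 10000 member UMIs of 8 helper-subset genes in each hash sample (squares pool 1, circles pool 2; Gestation green, Lactation magenta, others grey), with 95% Poisson intervals. Within pool 2, Ifng is highest in Lactation (3.37), Gata3 and Il1rl1 in Balb/c (3.92 and 1.68), Ccr6 in Regression (1.02) and Tnfsf8 in GF (3.03).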

How the data were processed

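Single CD45+ mammary cells were profiled for transcripts and hash tags (10x Genomics, version 3.1 reagents per the labels' protocols). Values in the deposited matrices are unnormalized counts of UMIs and of tags per barcode. The authors used Cell Ranger 6.1.0 and mm10 per the submitters' processing notes, and Cell Ranger 4 wrote the gene matrix of pool 1 per the file headers. Libraries were matched by symbol (55253 genes). Tags were called with HTODemux (Seurat 5.3.0, quantile 0.99), and Scrublet calls (scanpy 1.11.5, expected rate 0.08; 7.86% and 6.87% of cells) were removed. Summed counts per sample held 55218 to 1019248 UMIs and were tested with edgeR 4.0.16 (TMM, filterByExpr, library as a block; genes of the gate left out of calls). DESeq2 1.42.0 was an alternative. Replicate numbers mark no shared animal, and the block is the library.

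The members and gene lists were chosen with earlier results of these data known. Named genes are the 10 largest rises and falls past the threshold, alike in both libraries and with at most 30% of the UMIs of the higher stage in 1 cell, list genes past the threshold, the 4 most abundant members of a list, and, for names with 1 sample, the 5 highest and 5 lowest ratios. S1pr1, Tcf7, Nkg7 and Itga1 were named after their values were seen, as were the calls that exceed the 30% limit and single genes of the samples without a replicate. On simulated counts with 177 of 2244 genes changed 4-fold, the fit of Lactation minus Gestation recovered 132 (74.6%) with 2 false calls. The simulated sums had the same dispersion for every gene and no cell rich in 1 transcript. They therefore do not cover calls that rest on 1 cell, as many did here. Levels are UMIs per 10000 member UMIs. A count of 0 allows up to 3 counts. Some genes, 1 past the threshold among them, are not reported here.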

Additional observations from a re-analysis of the deposited data

Results flagged for a closer look

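For 5 genes the change from Gestation to Lactation differed between the conventional CD4 cells and the CD8 gate by edgeR's interaction test. The difference was 12.97 on the log2 scale for Ccl1 (SE 1.20, adjusted p = 0.000456), -7.50 for S100a9 (SE 0.81, adjusted p = 0.000456), -8.42 for S100a8 (SE 0.93, adjusted p = 0.000669), 8.06 for Ly6d (SE 1.21, adjusted p = 0.00986) and 5.75 for Jchain (SE 0.92, adjusted p = 0.0157). In at least 1 gate a single cell held most UMIs of each gene. In the members 94.1% of the Ccl1 UMIs, 84.8% of the S100a9 UMIs, 94.3% of the S100a8 UMIs and 75.1% of the Jchain UMIs lay in 1 cell. In the CD8 gate 94.3% of the Ly6d UMIs did.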

How the results depend on the processing

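Lactation minus Gestation in the share of conventional CD4 cells was 0.176 percentage points with tags called by the top tag and 0.134 with at least 2 Cd4 UMIs, both of opposite sign to the -0.275 reported, and the cause was not tested. Leaving out 1 sample in turn gave -4.39 to 3.84, since a stage with 1 library is then set against the mean of both libraries, whose shares differ. With labels permuted within each library, which is the replicate block of this test and was added after seeing the data, the exact p was 0.5, the smallest possible. Genes called, 16 as reported, numbered 25 with doublet calls kept, 26 with at most 5% mitochondrial UMIs, 1 with top tags, 1 with DESeq2 (11 at an unadjusted p under 0.05), 0 with at least 10 counts in each sum (55 at an unadjusted p under 0.05 in edgeR) and 7 to 12 when 1 sample was left out. After seeing the data, 2 settings were added: 1 gene was called without members of at least 50 antibody UMIs and 5 without members holding innate or gamma-delta UMIs. Without the replicate block, which here is the library, 1 gene was called. With at least 2 Cd4 UMIs 12 were called, with RLE scaling 19 and with no filter on low counts 23. Of these, 1, 16 and 13 were among the 16 reported. Of the 25 with doublet calls kept and the 26 with at most 5% mitochondrial UMIs, 15 and 16 were. A count alone does not show that the same genes were called. The counts with 1 sample left out come from fits without a block, so nothing is read from them. Leaving out 1 sample moved the log2 change of Igha between -1.35 and 5.22, of Igkc between -1.11 and 5.83 and of Jchain between -1.06 and 6.18. The same for Itga1, log2 fold change, Lactation minus Gestation, gave -0.0336 to 2.08. With a 3-fold limit the counts past it were 8 in Nulliparous, 2 in Germ-free of pool 1, 24 in Involution, 38 in Regression, 66 in Balb/c, 26 in GF and 86 in Germ-free of pool 2. With 100 UMIs they were 18, 6, 35, 40, 84, 38 and 86. Of 209 list levels, 8 left their interval with doublet calls kept, 78 when thinned and 52 without the richest member. Members of pool 1 held fewer UMIs, a median of 1332.5 against 2789, and give the less precise values.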
